A study of Mus musculus with 78 samples.

Results

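The Dlk1-Dio3 locus is an imprinted cluster on the distal part of mouse chromosome 12. The genes described are the 7 that the locus is named for or bounded by, Dlk1, Meg3, Rian, Mirg, Rtl1, Dio3 and Begain, matched by gene name among the 54446 genes of the RNA-seq tables and by gene identifier among the 54435 genes of the nascent RNA table. All 7 were found in both. They lie in a span of 1248911 bases that holds 122 annotated genes, of which 69 are miRNA genes and 23 are snoRNA genes. In mm10, with the annotation of GENCODE vM21, Begain (chr12:109032187-109068217, minus strand) stands at the proximal edge, followed by Dlk1 (chr12:109452823-109463336, plus strand), Meg3 (chr12:109541001-109571726, plus strand), Rtl1 (chr12:109589193-109600330, minus strand), Rian (chr12:109603940-109661716, plus strand), Mirg (chr12:109729764-109749460, plus strand) and Dio3 (chr12:110279068-110281097, plus strand, a single exon).

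In an imprinted locus the allele inherited from one parent is expressed and the other is kept silent by a mark set in the germ line. Here the protein genes Dlk1, Rtl1 and Dio3 are known to be expressed from the paternal allele, and the non-coding transcripts Meg3, Rian and Mirg, which carry large clusters of snoRNAs and miRNAs, from the maternal allele. The control region lies between Dlk1 and Meg3 and is methylated on the paternal allele, where ZFP57 binds methylated TGCCGC and recruits TRIM28, the adaptor through which SETDB1 places H3K9me3. Mouse embryonic stem cells (ESCs) are known for unstable imprinting at this locus. None of the files used here separates the alleles, so each value is the sum over both.

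The study degraded TRIM28 in V6.5 mouse ESCs whose endogenous TRIM28 carries an FKBP tag, grown from colonies picked after sorting, so that 500 nM of the ligand dTAG-13 removes the protein (0.05% DMSO in the controls). Polyadenylated RNA was sequenced from this tagged line after DMSO and after 2, 6, 24 and 96 h of dTAG-13, from untreated parental V6.5 ESCs, and from neural progenitor cells (NPCs) treated with DMSO, with 3 libraries in each group. Ribosome-depleted total RNA was sequenced from a derived line that carries Doxycycline (Dox)-inducible hairpins against endogenous retroviruses (the shERV line), after DMSO, dTAG-13 for 24 h, or dTAG-13 for 24 h with Dox, again with 3 libraries in each group. Nascent RNA was measured by TT-SLAM-seq, in which a short 4-thiouridine pulse marks newly made RNA, after DMSO and after 2, 6 and 24 h of dTAG-13 (3 libraries in each group), and ChIP-seq peaks were called after DMSO and 24 h of dTAG-13 for H3K9me3 and H3K27Ac (3 libraries in each group) and for RNA polymerase II (Pol2) and the Mediator subunit MED23 (2 libraries in each group). The titles give Dox in 1 shERV group only, whereas the treatment notes give a Dox pre-treatment for all 3. The ESCs were grown on feeder fibroblasts, which the growth notes of the tagged line say were depleted, while those of the parental ESCs and the shERV line name feeders and no depletion. No label says that the libraries of a group came from separate cultures, so p-values measure the spread between libraries only.

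Summed over 8 pluripotency markers, the level was 3470 to 3800 TPM in tagged ESCs with DMSO and 2270 to 2590 TPM after 24 h of dTAG-13. It was 312 to 351 TPM after 96 h, and 420 to 437 TPM in NPCs, with Pou5f1 and Zfp42 listed at 0 there. All 8 markers stood at a mean of 1 TPM or more after 96 h, and 3 of the 8 in NPCs. The sum of 6 neural progenitor markers was 3320 to 3360 TPM in NPCs and 29.4 to 83.6 in the other groups. One RNA-seq library, dTAG-13 24 h replicate 1, had 0.991 reads of coverage per base for each TPM, against 2.42 to 5.54 in the others, and one H3K9me3 library, dTAG-13 replicate 1, listed 11474 peaks against 104579 to 147611. H3K27Ac dTAG-13 replicates 1 and 3 listed 30259 and 45662 peaks against 88050 to 117475 in the other H3K27Ac libraries. Centring each library on its median gene, as an alternative scaling, shifted the log2 changes by -0.29 after 24 h and -0.28 after 96 h in RNA, by -0.24 in nascent RNA at 24 h, by -0.17 for dTAG-13 in the shERV line, by 0.19 for parental ESCs and by -0.40 for NPCs. In bulk RNA, fewer cells of one kind and less RNA per cell cannot be told apart.

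Stretches of DNA at the locus are shown first because the H3K9me3, Pol2 and MED23 results below turn on them. The interval between the end of Dlk1 and the start of Meg3 (chr12:109463337-109541000, 77664 bases, which also holds the annotated Gm34081 on the minus strand and a pair of entries named Gm27528 on the plus strand) held several H3K9me3 peaks in each DMSO library. The longest stretch under peaks in every DMSO library, here called the H3K9me3 domain, was chr12:109526048-109529460, 3413 bases long. It held 9 matches to TGCCGC or its reverse complement GCGGCA, counted on both strands. A 4-kb window centred on it also held 9, and of 661454 such windows tiled over chromosomes 1 to 19, X and Y, 19.6% held at least 1 match and 34 (0.00514%) held 9 or more. The tiled windows lay on a fixed grid and were not matched for CG dinucleotides. The domain held 108 of these, and each match contains a CG. The stretch of the domain with the most matches (chr12:109528221-109528520, plus strand of GRCm38.p6, the same assembly as mm10) held 5 of the 9, in capitals here.
H3K9me3 domain stretch: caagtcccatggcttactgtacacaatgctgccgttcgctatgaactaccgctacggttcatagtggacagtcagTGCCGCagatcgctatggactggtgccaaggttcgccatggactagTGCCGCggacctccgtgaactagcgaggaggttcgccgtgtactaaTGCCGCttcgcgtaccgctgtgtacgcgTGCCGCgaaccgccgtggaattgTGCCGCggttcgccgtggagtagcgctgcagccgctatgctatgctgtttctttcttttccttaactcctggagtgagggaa
The sequence around the first RefSeq start of Meg3 (chr12:109540746-109541045, plus strand) held 1 match, in capitals, on the opposite strand. Of 32851 RefSeq promoters of this length, 11.6% held at least 1, and none of the promoters listed for Begain, Dlk1, Rian, Mirg or Dio3 did. Such a match is a string of letters and not a measured binding site.
Meg3 promoter: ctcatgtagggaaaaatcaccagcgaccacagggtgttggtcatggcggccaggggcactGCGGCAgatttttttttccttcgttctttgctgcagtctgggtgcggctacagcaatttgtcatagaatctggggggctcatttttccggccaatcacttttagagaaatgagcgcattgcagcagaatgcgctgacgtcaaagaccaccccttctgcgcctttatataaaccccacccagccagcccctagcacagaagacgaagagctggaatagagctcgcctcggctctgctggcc
Begain has 5 listed promoters, and 3 of them lie inside a MED23 peak of the DMSO libraries (chr12:109052562-109054020). The most upstream of these 3 (chr12:109053707-109054006, minus strand) is 75.7% G and C, against a median of 52.7% over all promoters, and no letters are capitalised because it held no match.
Begain promoter: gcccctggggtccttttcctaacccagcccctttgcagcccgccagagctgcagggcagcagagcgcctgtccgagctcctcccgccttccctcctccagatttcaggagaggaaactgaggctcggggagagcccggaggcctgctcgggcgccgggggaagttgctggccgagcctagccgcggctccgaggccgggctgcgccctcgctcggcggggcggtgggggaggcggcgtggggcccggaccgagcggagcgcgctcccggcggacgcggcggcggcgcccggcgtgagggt

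The 7 genes differed widely in level in tagged ESCs. On the TPM scale, which is per length, the DMSO means were 1174 for Rian, 663 for Meg3, 74.8 for Mirg, 19.3 for Dlk1, 2.95 for Begain, 1.86 for Dio3 and 0.288 for Rtl1. Rian ranked 124 and Meg3 195 among all genes, whereas Rtl1 ranked 19444. On this scale no neighbours in this order overlapped between libraries of the DMSO group. In coverage per base, Rian (337, 254 and 279) overlapped with Meg3 (349, 251 and 338). Dio3 (8.89, 5.93 and 4.72) lay above Begain (2.52, 2.02 and 2.38) in that measure. Rian, Meg3 and Mirg together made up 0.173 to 0.217% of all TPM in the DMSO libraries, so the maternal transcripts were abundant and the paternal protein genes were low in the same cells.

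**Figure D1:**
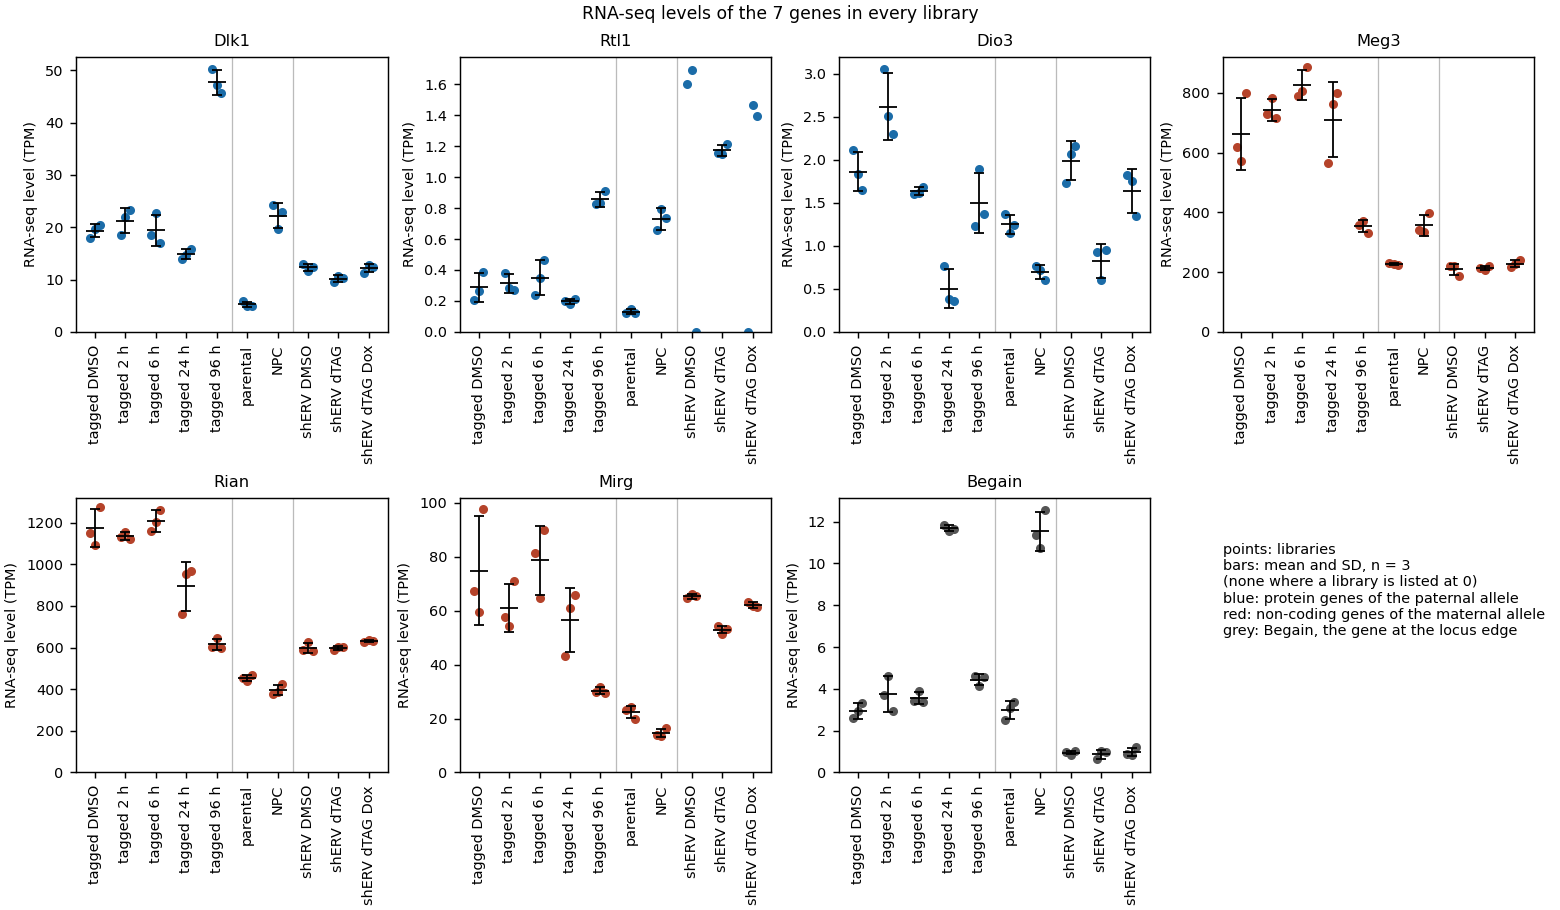
RNA-seq level in TPM (y axis, linear from 0, a separate scale for each gene) of the 7 genes in every library, with groups on the x axis. Points are libraries and bars are the mean and SD of 3 libraries. Mean Begain was 11.7 TPM after 24 h against 2.95 with DMSO, mean Dio3 was 0.5 TPM at the same time against 1.86, and mean Dlk1 was 47.7 TPM after 96 h.

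The first question was which genes responded to TRIM28 loss and when. In RNA-seq, none of the 6 members that passed the filter on low values (at least 1 TPM in 3 libraries, Rtl1 did not) was called at 2 h or 6 h. A gene was called at an adjusted p below 0.05 by limma and counted as changed if it was also more than 2-fold different on the log2(TPM + 0.5) scale, which understates the change of low genes. At 2 h, 0.374% of the 17922 genes tested were changed, and at 6 h 0.965%, while 15.3% and 33.9% were called at any size. At 24 h 2 members were changed, against 12.2% of all genes, and they moved in opposite directions. The median log2 change of the 6 members was -0.38 after 24 h and -0.57 after 96 h, against 0.13 and 0.05 over all genes tested.

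Begain, which encodes a synaptic protein of the postsynaptic density, rose at 24 h. Its TPM was 2.59, 2.93 and 3.34 with DMSO, 3.72, 4.62 and 2.93 after 2 h, 3.42, 3.90 and 3.38 after 6 h, 11.9, 11.6 and 11.7 after 24 h, and 4.60, 4.14 and 4.59 after 96 h. All 24 h libraries stood apart from all others of the time course, and the 96 h libraries lay between them and DMSO. The log2 change was 1.83 ± 0.12 (SE, n = 3 in each group, 3.54-fold, adjusted p = 1.72e-08 by limma) at 24 h and 0.52 ± 0.12 (adjusted p = 0.00144) at 96 h, a call that was lost with libraries centred on the median (0.24, adjusted p = 0.0834). From 24 h to 96 h, a contrast chosen after the values were seen, Begain fell by 1.30 on the log2 scale (adjusted p = 2.08e-07), where 30.2% of all genes were changed and 79.4% called at any size.

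Dio3, the deiodinase that inactivates thyroid hormone, fell at 24 h. Its TPM was 2.11, 1.83 and 1.65 with DMSO, 3.06, 2.50 and 2.30 after 2 h, 1.61, 1.62 and 1.69 after 6 h, 0.762, 0.383 and 0.356 after 24 h, and 1.24, 1.89 and 1.37 after 96 h. The 24 h libraries did not overlap with any other group of the time course, and the highest of them was the shallow library. The log2 change at 24 h was -1.26 ± 0.16 (2.4-fold lower, adjusted p = 1e-05 by limma), and leaving out any 1 library kept the direction and the call. At 96 h it was -0.25 ± 0.16 (adjusted p = 0.17), which became a call with libraries centred on the median (-0.53, adjusted p = 0.00809), and from 24 h to 96 h Dio3 rose by 1.01 ± 0.16 (adjusted p = 5.41e-05). The 2-fold mark at 24 h depended on the pseudocount, since with 1 in place of 0.5 the drop was below 2-fold while still called (-0.94).

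Dlk1, a transmembrane ligand-like protein that modulates Notch signalling and is a marker of immature cells, was lower at 24 h and higher at 96 h. Its TPM was 17.9, 19.6 and 20.3 with DMSO, 13.9, 14.8 and 15.8 after 24 h, and 50.3, 47.2 and 45.7 after 96 h. Every 24 h library lay below every DMSO library and every 96 h library lay above. The log2 change was -0.37 ± 0.10 (adjusted p = 0.00521) at 24 h and 1.28 ± 0.10 (2.44-fold, adjusted p = 2.2e-08) at 96 h, and from 24 h to 96 h it was 1.65 ± 0.10 (3.14-fold). At 96 h, 32.7% of all genes were changed. The sum of 15 feeder fibroblast markers was 42.4 to 43.6 TPM with DMSO and 372 to 401 TPM after 96 h, with 13 of 15 at a mean of 1 TPM or more and Fap listed at 0, led by Col1a1 at 183 TPM. The sum of 12 endoderm markers was 76.4 to 86.6 TPM with DMSO and 348 to 359 TPM after 96 h, with Afp and Ttr listed at 0, led by Col4a1 at 265 TPM. With DMSO, 9 of the 15 and 7 of the 12 stood at a mean of 1 TPM or more, and 8 of the 12 did after 96 h. The part of cells with these markers in the Dlk1 level was not tested.

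Rtl1, a protein derived from a retrotransposon gag-pol gene and needed in the placenta, was too low to be tested in the time course. Its TPM was 0.209, 0.266 and 0.390 with DMSO, 0.198, 0.183 and 0.212 after 24 h, and 0.829, 0.831 and 0.914 after 96 h. The 96 h libraries lay above all DMSO libraries, as for Dlk1. With 3 libraries against 3 the smallest two-sided p that an exact permutation test allows is 0.1. miRNA genes lie opposite Rtl1 on the other strand, so reads of the pair depend on the strand setting of the counting.

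The 3 maternal transcripts fell late. Meg3, a long non-coding RNA, had 617, 571 and 800.0 TPM with DMSO, 566, 762 and 800.1 after 24 h, and 359, 370 and 332 after 96 h. Rian, the host of a snoRNA cluster, had 1151, 1095 and 1275 TPM with DMSO, 760, 953 and 968 after 24 h, and 604, 645 and 597 after 96 h. Mirg, the host of a miRNA cluster, had 67.2, 59.5 and 97.7 TPM with DMSO, 43.2, 61.1 and 65.7 after 24 h, and 29.7, 31.9 and 29.4 after 96 h. For all 3, the 96 h libraries lay below every DMSO library, while at 24 h only Rian was separate from DMSO. At 96 h the log2 changes were -0.89 ± 0.13 for Meg3 (adjusted p = 1.36e-05), -0.93 ± 0.08 for Rian (adjusted p = 5.95e-08) and -1.26 ± 0.18 for Mirg (adjusted p = 2.03e-05), all by limma, and Mirg passed the 2-fold mark. At 24 h Rian was lower by a called -0.40 ± 0.08 (adjusted p = 5.05e-04), Mirg stood at -0.39 ± 0.18 (adjusted p = 0.0787) and Meg3 at 0.10 ± 0.13 (adjusted p = 0.515). With libraries centred on the median, Mirg was called at 24 h (-0.68, adjusted p = 0.00439), Meg3 turned to -0.19, and all 3 passed the 2-fold mark at 96 h.

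Meg3 and Rian run in the same direction over the same domain, and their balance was compared within libraries. The Rian to Meg3 ratio of TPM was 1.86, 1.92 and 1.59 with DMSO, 1.55, 1.47 and 1.56 after 2 h, 1.47, 1.50 and 1.42 after 6 h, 1.34, 1.25 and 1.21 after 24 h, and 1.68, 1.74 and 1.79 after 96 h. From 2 h to 24 h every library lay below every DMSO library, and at 96 h the groups overlapped. The two-sided exact permutation p was 0.1 at 2, 6 and 24 h, the smallest it can give, and 0.7 after 96 h. A ratio within a library is not affected by how libraries are scaled.

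Other transcripts of the span were lower at 96 h as well. Of 25 other genes tested in the time course, 12 were lower by more than 2-fold at 96 h and none was higher, against 12.4% lower and 20.3% higher over all genes. They comprised the miRNA genes Mir433, Mir453, Mir3072 and Mir409, the long non-coding Gm26945 and Gm34081, and DQ267102, Gm24564, Gm25357, Gm23600, Gm27350 and Gm27596. Among these, Gm27350 had a log2 change of -1.65 ± 0.15 (adjusted p = 9.64e-08) and Gm26945 one of -1.09 ± 0.18 (adjusted p = 4.47e-05). Gm24564, Gm23600, DQ267102, Gm25357 and Gm26945 lie inside Rian, Gm27350 overlaps its start, Mir453, Mir409 and Mir3072 lie inside Mirg and Gm27596 inside Meg3, so these are not independent of their hosts. Mir433 lies between Meg3 and Rian, and Gm34081 before Meg3 on the other strand. DQ267102 was the only one called changed upward at 2 h (1.04 ± 0.29, adjusted p = 0.0288) and at 6 h (1.26 ± 0.29, adjusted p = 0.00509).

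Gm34081, a long non-coding RNA on the minus strand between Dlk1 and Meg3 (chr12:109493529-109516740), fell at 24 h and at 96 h. Its mean was 3.45 TPM with DMSO (lowest 2.84, highest 4.58), 3.63 after 6 h, 0.58 after 24 h (lowest 0, in the shallow library, highest 0.88) and 0.109 after 96 h. Its highest value at 24 h lay below the lowest in DMSO. The log2 change was -1.99 ± 0.34 (adjusted p = 0.000126) at 24 h and -2.69 ± 0.34 (adjusted p = 3.82e-06) at 96 h. In nascent RNA, where it was below the filter, it held 83 reads over the DMSO libraries (0.117 FPKM on average) and 43 over the 24 h libraries (0.0358 FPKM), which were deeper in sum but not each.

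Known regulators of imprints, a list of 19 genes that includes Zfp57, Trim28, Setdb1 and the DNA methyltransferases, fell at 96 h. Of the 19, 18 were called lower and 13 of these by more than 2-fold, with a median log2 change of -1.62 against 0.05 over all genes. Of all genes, 80.3% were called at any size at 96 h and 67.9% at 24 h. Zfp57 was 444 ± 56 TPM with DMSO, 334 ± 34 after 24 h and 79.4 ± 4.1 after 96 h (SD, n = 3). At 24 h 9 of the 19 were called lower and 3 higher, with Dnmt3l (-1.67), Dnmt3b (-1.04) and Jarid2 (-1.22) past 2-fold. Of 8 genes that flank the locus, Yy1, Wars, Wdr25, Slc25a29 and Slc25a47 on one side and Ppp2r5c, Dync1h1 and Hsp90aa1 on the other, none was changed by more than 2-fold at 2, 6 or 24 h, and at 96 h 1 was higher and 1 lower.

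The next question was whether synthesis of these transcripts changed. TT-SLAM-seq counts reads over the whole gene, introns included, and its FPKM is per base of gene span. Of the 7 genes, Meg3, Rian and Mirg passed the filter of 0.5 FPKM in 3 libraries. Begain, Dlk1, Dio3 and Rtl1 had 78, 15, 16 and 1 reads over the DMSO libraries, which held between 7290000 and 12600000 counted reads each.

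Nascent Rian rose at 6 h. It had 1.81, 1.72 and 2.89 FPKM with DMSO, 3.44, 3.62 and 2.83 after 2 h, 5.43, 3.83 and 6.13 after 6 h, and 2.4, 3.54 and 2.35 after 24 h. All 6 h libraries lay above all DMSO libraries, at 2 h one library lay below the highest DMSO library, and at 24 h the groups overlapped. The log2 change was 0.55 ± 0.22 after 2 h (adjusted p = 0.185), 1.10 ± 0.22 after 6 h (2.14-fold, adjusted p = 0.0179) and 0.31 ± 0.22 after 24 h (adjusted p = 0.284). At 2 h 0.225% of the 13357 genes tested were changed, at 6 h 0.569% and at 24 h 3.4%, while 3.55%, 9.09% and 37.9% were called at any size. The call at 6 h did not survive leaving out DMSO replicate 1 (adjusted p = 0.0686) or 2 (0.0713), or 6 h replicate 1 (0.0772) or 3 (0.0616), although the log2 change stayed at 0.97 or above. On the whole reads recovered from the FPKM values, tested with limma voom, the change at 6 h was 1.26 (adjusted p = 2.67e-05). In that fit Rian was also called at 2 h (0.62, adjusted p = 0.0307).

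**Figure D2:**
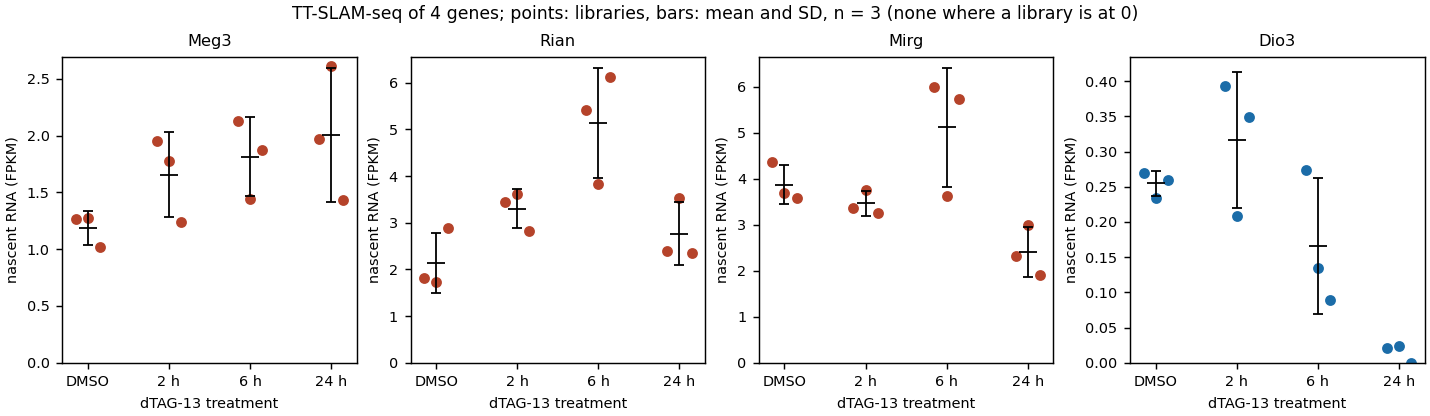
Nascent RNA in FPKM (y axis, linear from 0, a separate scale for each gene) of Meg3, Rian, Mirg and Dio3 by time of dTAG-13 treatment (x axis). Points are libraries and bars are the mean and SD of 3 libraries. Mean Rian was highest at 6 h, mean Mirg was lowest at 24 h, and mean Dio3 was 0.255 FPKM with DMSO and 0.0148 after 24 h.

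Nascent Meg3 was called higher and nascent Mirg lower at 24 h. Meg3 had 1.27, 1.27 and 1.02 FPKM with DMSO and 1.97, 2.61 and 1.43 after 24 h. Mirg had 4.36, 3.68 and 3.58 FPKM with DMSO, 5.99, 3.62 and 5.74 after 6 h, and 2.32, 2.99 and 1.90 after 24 h. Every 24 h library of Meg3 lay above DMSO, and every one of Mirg lay below. The log2 changes were 0.55 ± 0.19 for Meg3 (adjusted p = 0.0468) and -0.60 ± 0.19 for Mirg (adjusted p = 0.0287), both called and neither above 2-fold, where 37.9% of all genes were called at any size. With libraries centred on the median, Meg3 stood at 0.30 and was not called (adjusted p = 0.224), whereas Mirg kept its direction and its call. Both calls were close to the threshold. The Meg3 call was also lost with no filter on low values (adjusted p = 0.074), with only the 2 groups fitted (0.0706), and without any 1 of DMSO replicates 1 (adjusted p = 0.0791), 2 (0.0778) and 3 (0.125) or 24 h replicates 1 (0.101) and 2 (0.168), and the Mirg call without DMSO replicate 1 (0.0924) or 2 (0.0561) or 24 h replicate 1 (0.074) or 3 (0.0995). On recovered reads with voom both were called, at 0.79 (adjusted p = 0.00142) and -0.64 (adjusted p = 0.00284). In that fit 3118 of 21168 genes were changed upward and 584 downward, and the median log2 change over all genes was 0.39.

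Mirg and Meg3 lie at opposite ends of the maternal domain, and their ratio within a library does not depend on scaling between libraries. The ratio of Mirg to Meg3 nascent reads was 2.20, 1.85 and 2.26 with DMSO, 1.11, 1.36 and 1.68 after 2 h, 1.80, 1.61 and 1.97 after 6 h, and 0.755, 0.735 and 0.853 after 24 h. The 2 h and 24 h libraries all lay below DMSO, and the 6 h libraries overlapped with it. The two-sided exact permutation p was 0.1 after 2 h and 24 h, the smallest possible, and 0.2 after 6 h. The ratio of Rian to Meg3 nascent reads was 2.68, 2.54 and 5.34 with DMSO, so DMSO replicate 3 stood apart there. After 6 h it was 4.79, 5.01 and 6.17 (two-sided exact permutation p = 0.3). This ratio overlapped with DMSO at 2 h, 6 h and 24 h.

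**Figure D3:**
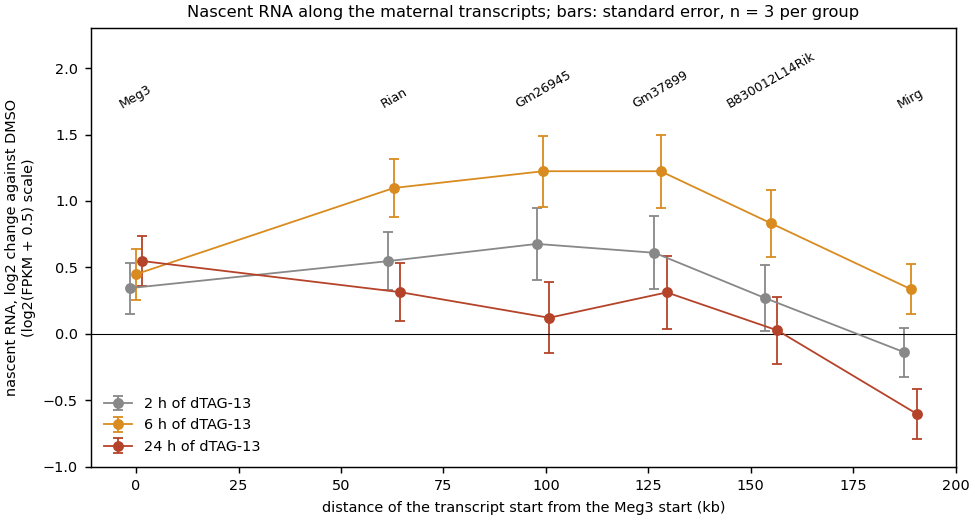
Log2 change of nascent RNA against DMSO (y axis, log2(FPKM + 0.5) scale) for the 6 long transcripts of the maternal domain with at least 1000 nascent reads in all, by the distance of their start from the Meg3 start in kb (x axis). Points are limma estimates at 2, 6 and 24 h of dTAG-13 and bars are standard errors. At 24 h the values run from 0.55 at Meg3 to -0.60 at Mirg, 189 kb downstream.

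Between Meg3 and Mirg the annotation places further long transcripts on the same strand. At 6 h, Gm26945 (99.3 kb from the Meg3 start) and Gm37899 (128 kb) were changed, both by 1.22, with standard errors of 0.268 and 0.275 (adjusted p = 0.0255 and 0.0271). Rian starts at 62.9 kb. B830012L14Rik (155 kb) stood at 0.83 ± 0.25 (adjusted p = 0.0671) and Mirg (189 kb) at 0.34 ± 0.19 (adjusted p = 0.283). Meg3 stood at 0.45 ± 0.19 (adjusted p = 0.172), and none of these 3 was called. On recovered reads with limma voom, Meg3 was called at 6 h (0.59, adjusted p = 0.0387) and Mirg was not (0.36, adjusted p = 0.151). Gm26945 lies inside Rian on the same strand, so their reads cannot be told apart, while Gm37899 starts downstream of the Rian end. At 24 h Gm26945, Gm37899 and B830012L14Rik stood at 0.12, 0.31 and 0.03, between Meg3 and Mirg, and none of them was called. No test compared one transcript's change with another's.

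Among the 81 miRNA and snoRNA genes of the span that were tested in nascent RNA, 62 had a positive log2 change at 6 h and 19 a negative one, with a median of 0.67 against 0.058 over all genes, and at 24 h 39 were positive and 42 negative. At 6 h the change was positive in 21 of 23 snoRNA genes (median 1.24) and in 41 of 58 miRNA genes (median 0.55). Many of these genes lie inside Meg3, Rian or Mirg on the same strand, such as Mir770, Mir1188 and Mir409. Their reads are therefore not independent of those of their hosts. These genes had 7 to 249 reads each over the 12 libraries. At 6 h Mir1188 (1.43), DQ267100 (3.07), Gm22205 (2.15) and Gm23474 (2.05) were changed upward. At 24 h Mir770 (2.13), Mir431 (2.43) and Mir1188 (1.38) were changed upward. Mir758, Mir409, Gm22981 and AF357428 were changed downward, by -1.74, -1.35, -1.44 and -1.07. Mir431 went from 0 reads in DMSO to 11 after 24 h, Mir770 from 1 to 14 and Mir409 from 20 to 13. These calls rest on few reads. With no DMSO read, Mir431 passed the filter only through dTAG-13 libraries, which favours an upward call. The same limit bears on Mir770, with 1 read over the DMSO libraries, and DQ267100, with a DMSO library at 0. Neither could pass the filter through DMSO libraries alone. The mature miRNAs of these 5 miRNA genes follow 5′ to 3′ from RefSeq, to show which products these genes encode, with the seed (bases 2 to 8) in capitals.
miR-770-5p: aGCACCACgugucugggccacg
miR-770-3p: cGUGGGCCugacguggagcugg
miR-431-5p: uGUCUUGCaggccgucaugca
miR-431-3p: cAGGUCGUcuugcagggcuucu
miR-1188-5p: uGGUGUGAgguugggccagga
miR-1188-3p: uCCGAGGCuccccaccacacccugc
miR-758-5p: uGGUUGACcagagagcacacg
miR-758-3p: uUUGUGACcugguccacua
miR-409-5p: aGGUUACCcgagcaacuuugcau
miR-409-3p: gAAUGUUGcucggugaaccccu
In this set, no seed is shared, and in the span only the miR-758-5p seed occurs a second time, in miR-1197-5p. Among all 114 mature miRNAs of the span there were 104 distinct seeds.

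Nascent Dio3 rested on few reads and was lower at 24 h, as its RNA was. It had 4, 6 and 6 reads in the DMSO libraries, 13, 6 and 10 after 2 h, 9, 5 and 3 after 6 h, and 1, 1 and 0 after 24 h, although the 24 h libraries together held 51300000 counted reads against 31300000 in DMSO. In FPKM this was 0.270, 0.235 and 0.259 with DMSO and 0.0203, 0.0240 and 0 after 24 h. The groups did not overlap (two-sided exact permutation p = 0.1, the smallest possible), and on recovered reads with limma voom the log2 change was -2.97 (adjusted p = 0.00383). The voom fit at 24 h had 584 of 21168 genes changed downward and 3118 upward. Begain was higher in every 6 h library than in DMSO (0.092 against 0.0675 FPKM on average, exact permutation p = 0.1) and overlapped with it at 24 h, with 0.0571, 0.0749 and 0.0706 FPKM with DMSO and 0.120, 0.120 and 0.0428 after 24 h (exact permutation p = 0.4). The low 24 h value was in the shallowest library, with 6480000 counted reads. Nascent Dlk1 was 0.0485 FPKM on average in DMSO and 0.0405 after 24 h, from 15 and 23 reads (exact permutation p = 0.5), and Rtl1 had at most 4 reads in any group.

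H3K9me3 between Dlk1 and Meg3 was lower in every library after 24 h of dTAG-13. Fold enrichment is the height of a peak over the peak caller's background within a library, with no scaling between libraries. The highest H3K9me3 peak of the interval had a fold enrichment of 3.73, 3.17 and 3.08 in the DMSO libraries, and 0 (no peak listed), 2.66 and 2.25 after dTAG-13. All dTAG-13 libraries lay below all DMSO libraries (difference -1.69, two-sided exact permutation p = 0.1, the smallest possible), and so did 40.5% of windows of this length in the genome. Without dTAG-13 replicate 1, the library with few peaks, the difference was -0.87. The bases under peaks were 8169, 8465 and 5937 with DMSO and 0, 1387 and 214 after dTAG-13.

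The domain of 3413 bases with the TGCCGC matches was covered in full in each DMSO library, which is how it was chosen, and 0, 357 and 0 of its bases were covered after dTAG-13. Of 2595 4-kb tiles of the genome that were at least 80% covered in every DMSO library, 83.5% were less covered in every dTAG-13 library. In dTAG-13 replicates 2 and 3 the median tile kept 59.4% and 55% of its bases under peaks, against 10.5% and 0% of the domain, and 5.32% and 4.32% of tiles kept as little or less. In replicate 1, the library with few peaks, 49.8% of tiles did. The H3K9me3 peaks of the interval were weak. None of them was among the 10000 highest of its library, and none reached a −log10 q of 5. The tiles were chosen by coverage and not matched for peak strength. These shares therefore cannot show whether the domain lost more H3K9me3 than regions with peaks of like strength.

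**Figure D4:**
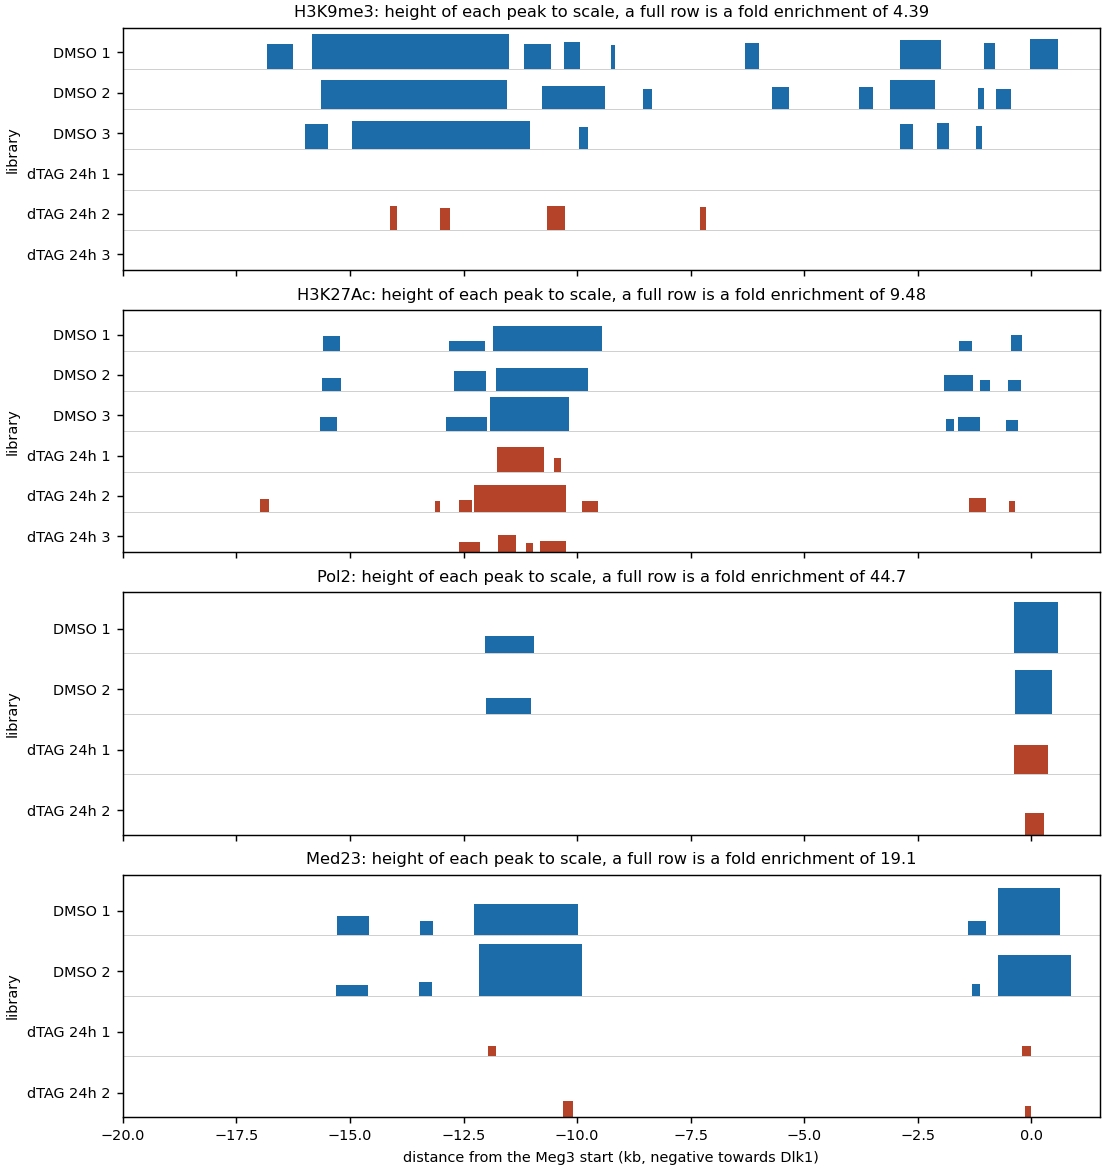
Deposited peaks in the last 20 kb before the Meg3 start (x axis, distance in kb, negative towards Dlk1), with 1 row for each library (y axis) and the height of each box proportional to fold enrichment. Blue is DMSO and red is 24 h of dTAG-13. The H3K9me3 block in the upstream part of the plot was present in the 3 DMSO libraries and reduced to 2 short boxes in 1 dTAG-13 library, while the H3K27Ac block beside it was listed in all 6.

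Among the MED23 and Pol2 peaks of the interval was an element that overlapped the edge of that domain. It was chosen for the highest MED23 enrichment among stretches under peaks in every DMSO library, which favours lower MED23 values after dTAG-13. This element (chr12:109528849-109531025) had a MED23 fold enrichment of 9.69 and 16.2 with DMSO and of 3.26 and 5.10 after dTAG-13, and Pol2 there was 12.3 and 11.2 with DMSO with no peak listed after dTAG-13. H3K27Ac at the same element was 5.70, 5.45 and 8.06 with DMSO and 5.83, 6.33 and 4.07 after dTAG-13, so the groups overlapped (exact permutation p = 0.6). Of these, 5.83 and 4.07 come from the H3K27Ac libraries with few peaks, and the remaining 6.33 lay within the DMSO range. At the Meg3 start, Pol2 was 38.0 and 32.1 with DMSO and 21.4 and 16.0 after dTAG-13, and MED23 was 14.9 and 12.9 against 3.52 and 3.24. H3K9me3 in the 4-kb window at the Meg3 start was 3.24, 2.31 and 2.87 with DMSO with no peak listed in any dTAG-13 library. With 2 libraries against 2 the smallest possible exact p is 0.333.

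Lower Pol2 and MED23 peaks were the rule over the genome. Pol2 libraries listed 8182 and 7689 peaks after dTAG-13 against 19853 and 19194 with DMSO. MED23 libraries listed 15335 and 14551 against 63045 and 58925. A Pol2 or MED23 peak not listed after dTAG-13 is therefore not particular to this locus. Of 4-kb windows at gene starts with a peak in any library, 83.8% were lower in every dTAG-13 library for Pol2 and 90.1% for MED23, against 18.9% for H3K9me3 and 11.2% for H3K27Ac. Among the 7 genes, the window was lower in every dTAG-13 library at 1 of 1 with a Pol2 peak, at 3 of 4 with a MED23 peak, at 1 of 2 with H3K9me3 and at 0 of 4 with H3K27Ac. These are too few windows to set the 7 genes apart from the genome. At Meg3, Pol2 peaks were lower at 24 h while nascent FPKM was higher in every library.

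MED23 peaks were also listed at Begain, Dio3 and Dlk1, and none at Rtl1. The Begain and Dio3 peaks, and the element and domains between Mirg and Dio3, were defined from peaks of the DMSO libraries. This choice favours lower values of the same mark after dTAG-13. At Begain the peak over 3 of its promoters was 7.86 and 9.44 with DMSO with none listed after dTAG-13, while Begain RNA was higher at that time. At Dio3 the peak over the 3′ part of the gene and beyond (chr12:110280089-110282713) was 7.03 and 7.10 with DMSO with none after dTAG-13, and at the Dlk1 start it was 5.17 and 5.19 with none after. A MED23 element between Mirg and Dio3 (chr12:109947573-109950321) had a fold enrichment of 33.4 and 32.9 with DMSO and of 2.41 and 3.39 after dTAG-13, with H3K27Ac there at 9.68, 9.37 and 8.87 with DMSO and 8.22, 12.1 and 3.00 after dTAG-13, the first and last of these from the libraries with few peaks. Without both, the remaining value lay above the DMSO range. A pair of H3K9me3 domains between Mirg and Dio3 kept peaks in every dTAG-13 library. The first (chr12:109820417-109823944) was 4.69, 3.77 and 4.74 with DMSO and 3.61, 3.15 and 2.64 after dTAG-13, and the second (chr12:109901178-109909276) kept 1079, 5340 and 4367 of its 8099 bases under peaks.

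The third question was whether the response was the same in the shERV line, where hairpins against endogenous retroviruses can be induced. In that line dTAG-13 for 24 h changed 3.82% of 16166 genes by more than 2-fold, and none of the 7 members, all of which were tested. Dio3 again fell, from 1.73, 2.07 and 2.17 TPM with DMSO to 0.926, 0.599 and 0.951. Mirg went from 64.6, 66.4 and 65.3 to 54.2, 51.6 and 53.2, and Dlk1 from 13, 11.7 and 12.4 to 9.51, 10.7 and 10.3. In all 3 genes the dTAG-13 libraries lay below the DMSO libraries. The log2 changes were -0.92 ± 0.15 for Dio3 (adjusted p = 3.15e-04), -0.30 ± 0.04 for Mirg (adjusted p = 6.27e-05) and -0.27 ± 0.07 for Dlk1 (adjusted p = 0.00668), all called by limma. These are 3 of 7 members, where 54% of all genes were called at any size.

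With Dox, the 3 genes were higher than with dTAG-13 alone. Dio3 was 1.82, 1.76 and 1.35 TPM, Mirg 63.4, 61.6 and 61.5, and Dlk1 11.3, 12.9 and 12.4. Against dTAG-13 alone the log2 changes were 0.70 ± 0.15 for Dio3 (adjusted p = 0.00263), 0.23 ± 0.04 for Mirg (adjusted p = 6.32e-04) and 0.25 ± 0.07 for Dlk1 (adjusted p = 0.0126), where 3.45% of all genes were changed and 46.8% were called at any size. The Dlk1 call was lost without dTAG-13 replicate 1 (0.20, adjusted p = 0.0568) or without Dox replicate 2 (0.21, adjusted p = 0.0578). Against DMSO no member was called, and 0.0186% of all genes were changed and 0.0619% called at any size. These comparisons share libraries with each other. The sum of pluripotency markers in this line was 1910 to 2240 TPM with DMSO, 904 to 943 after dTAG-13 and 2170 to 2200 with Dox, and its part in these values was not tested.

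The remaining members were not called in the shERV line without centring. Meg3 stood at 0.03 ± 0.06 (95% interval -0.11 to 0.17, and -0.13 with libraries centred on the median) and Rian at -0.00 ± 0.04 (-0.09 to 0.09) after dTAG-13. With libraries centred on the median Rian was called lower after dTAG-13 (-0.16, adjusted p = 0.00144) and higher with Dox against dTAG-13 alone (0.15, adjusted p = 0.00268). Begain was 0.957, 0.857 and 1.02 TPM with DMSO and 0.636, 1.04 and 0.974 after dTAG-13 (-0.08 ± 0.16, adjusted p = 0.718). Rtl1 was 1.60 and 1.69 TPM with DMSO with the third library listed at 0, 1.15, 1.15 and 1.22 after dTAG-13, and 1.47 and 1.40 with the first library listed at 0 after Dox. An exact 0 beside such values may be a failed estimate of the quantification. Gm34081 was changed downward after dTAG-13 (-1.03 ± 0.22, adjusted p = 0.0019) and rose with Dox against dTAG-13 alone (0.87 ± 0.22, adjusted p = 0.00658). AF357428 was the other gene of the span changed by dTAG-13 (-1.06), and Mir337 the one changed by Dox (1.02).

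**Figure D5:**
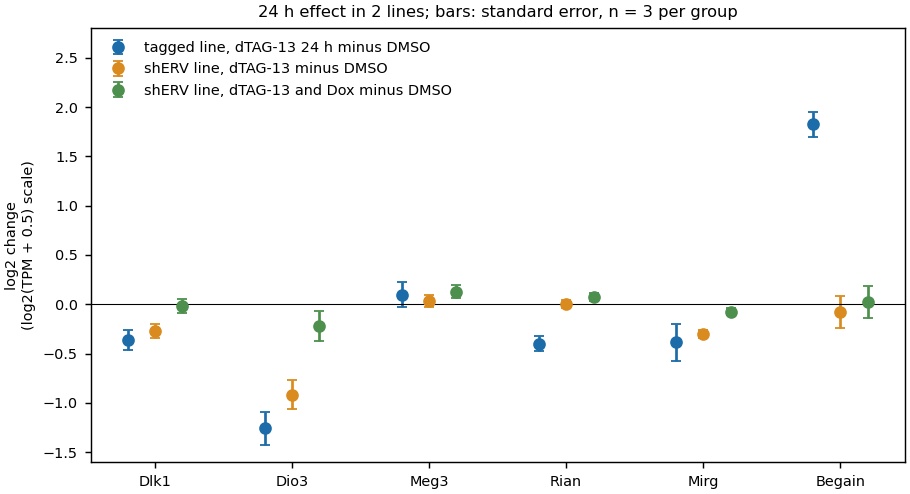
Log2 change of RNA level against the DMSO group of the same line (y axis, log2(TPM + 0.5) scale) for 6 genes (x axis). Points are limma estimates after 24 h of dTAG-13 in the tagged line and in the shERV line without and with Dox, and bars are standard errors. Begain stands at 1.83 in the tagged line and at -0.08 in the shERV line, while Dio3 is below 0 in both without Dox.

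The difference between the lines was tested directly as an interaction term. For Begain the effect in the shERV line minus that in the tagged line was -1.90 ± 0.18 (adjusted p = 5.52e-06), and for Rian 0.40 ± 0.12 (adjusted p = 0.0134). For the other 5 members the term was not called, with 0.34 for Dio3, 0.10 for Dlk1, -0.07 for Meg3, 0.09 for Mirg and 0.51 for Rtl1. Of 17653 genes, 51.4% were called in this test, so 2 of 7 is not a high share. The lines also differ in library kit, so line and kit cannot be told apart. In the shERV DMSO libraries feeder fibroblast markers summed to 144 to 154 TPM (12 of 15 at a mean of 1 TPM or more). In the tagged DMSO libraries the sum was 42.4 to 43.6 (9 of 15). Endoderm markers summed to 176 to 194 TPM (5 of 12) against 76.4 to 86.6 (7 of 12). The part of either set in this difference between lines was not tested.

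The last comparisons set cells without dTAG-13 side by side. Parental V6.5 ESCs had lower maternal transcripts than tagged ESCs in DMSO. Meg3 was 231, 228 and 223 TPM, Rian 456, 438 and 467, and Mirg 23.1, 24.3 and 19.8, each with all libraries below the tagged DMSO libraries. The log2 differences from tagged DMSO were -1.53 ± 0.11 for Meg3 (adjusted p = 2.52e-06), -1.37 ± 0.06 for Rian (adjusted p = 8.87e-08) and -1.69 ± 0.17 for Mirg (adjusted p = 1.73e-05). Dlk1 was lower too, at 5.81, 4.95 and 4.96 TPM (-1.79 ± 0.09, 3.46-fold, adjusted p = 1.96e-07). Dio3, at 1.37, 1.15 and 1.24 TPM, was called lower by less than 2-fold (-0.43 ± 0.10, adjusted p = 0.0045), a call that was lost with libraries centred on the median (-0.24, adjusted p = 0.0683). Rtl1, below the filter, was 0.123, 0.147 and 0.123 TPM. In all, 4 of 6 members were changed, against 11.4% of 17458 genes, with 66% of them called at any size, and Begain was not called (0.01 ± 0.12, 95% interval -0.25 to 0.28). The tagged cells were exposed to DMSO and grown from picked colonies, and the parental cells were untreated. DMSO, tagging, the picking of colonies and feeder depletion cannot be told apart here. Feeder fibroblast markers summed to 126 to 128 TPM in the parental libraries against 42.4 to 43.6. Pluripotency markers summed to 5480 to 5570 TPM in the parental libraries against 3470 to 3800. The part of either set in these differences was not tested. Of 14 other genes of the span tested, 8 were lower by more than 2-fold and none was higher, namely DQ267102, Gm24564, Gm25357, Gm34081 and the miRNA genes Mir453, Mir1188, Mir3072 and Mir409, from -1.36 for DQ267102 to -2.12 for Mir1188.

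In NPCs the maternal transcripts were lower and Begain higher than in tagged ESCs. Rian was 377, 386 and 424 TPM and Mirg 14.0, 13.5 and 16.4, lower than in tagged ESCs by -1.57 ± 0.06 and -2.29 ± 0.17 (adjusted p = 4.21e-09 and 5.31e-07), and Meg3 was 341, 333 and 397 (-0.88 ± 0.11, adjusted p = 4.33e-05). Begain was 11.4, 10.7 and 12.6 TPM (1.81 ± 0.12, adjusted p = 2.05e-07), near its level at 24 h of dTAG-13 in ESCs. Dlk1 was 24.2, 19.6 and 22.9 TPM (0.20 ± 0.09, adjusted p = 0.0662, and -0.20 with libraries centred on the median), and Dio3 0.766, 0.718 and 0.602 (-0.98 ± 0.10, adjusted p = 8.24e-06). Rtl1, also below the filter here, was 0.655, 0.796 and 0.734 TPM. In NPCs 46.6% of genes were changed and 89% called at any size, so 3 of 6 members is close to the background. Of the 14 other genes of the span, 8 were lower by more than 2-fold in NPCs and none was higher. They were DQ267102, Gm24564, Gm25357, Gm27350, Mir1188, Mir3072, Mir409 and Gm34081, the last of which was listed at 0 in every NPC library. The Rian to Meg3 ratio was 1.07 to 1.16 in NPCs, 1.92 to 2.10 in parental ESCs and 2.63 to 3.11 in the shERV line. The shERV libraries are total RNA and the others polyadenylated RNA, so line and kit cannot be told apart in this ratio. In NPCs Rian and Meg3 overlapped in level, as did Rtl1 and Dio3.

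To find genes with a like pattern, the log2 mean TPM of each member was correlated with that of 14301 genes over the 7 groups of polyadenylated RNA, as a description only. The highest Pearson r was 0.987 for Begain (with Zfr2), 0.998 for Dlk1 (with Stard13), 0.991 for Meg3 (with Gm27000), 0.992 for Rian (with Tlcd1), 0.995 for Mirg (with Ccdc194) and 0.965 for Dio3 (with Pgd). Rian and Mirg were among each other's 3 most alike genes, with r = 0.988. For Begain and Dio3 the r was -0.846. The 7 group means share the same libraries and include the groups compared above.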

How the data were processed

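Per the labels and the submitters' processing notes, the authors trimmed RNA-seq reads with cutadapt 2.4, aligned them to mm10 with STAR 2.7.5a and deposited StringTie 2.0.6 tables, 1 for each library, with TPM and coverage per base for each gene. The authors deposited nascent RNA as FPKM from reads with T-to-C conversions, counted over whole genes. The authors deposited 1 peak list for each ChIP-seq library, made with BWA, SAMtools, GATK 4.1.4.1 and MACS2 on mm10 (MACS2 version not given in the sources used here), with fold enrichment and −log10 q of each peak. The caller's settings and the strand setting of the counting are not given in the sources used here.

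Here, TPM and FPKM were tested as log2(value + 0.5) with limma 3.58.1 in R 4.3.3, with an empirical Bayes trend, over all genes at or above 1 TPM or 0.5 FPKM in at least 3 libraries, with Benjamini-Hochberg adjustment over all of them. The fits covered the 12 nascent libraries, the 15 of the time course, the 9 of the shERV line and the 9 of the tagged DMSO, parental and NPC groups. Single values were compared by two-sided exact permutation tests, whose smallest p is 0.1 for 3 against 3 and 0.333 for 2 against 2. Whole reads were recovered from the FPKM values (97.8 to 99.1% of low values within 0.1 of a whole number) and gave between 6480000 and 24300000 counted reads per library. Peaks were summarised as the highest fold enrichment in a region (0 where none was listed) and as bases covered. Coordinates are of mm10, and sequences were read from RefSeq tables and the GRCm38.p6 genome. The limma steps and permutation tests were tested on simulated data. The members and gene lists were chosen with earlier results of these data known. All 7 members are named, as are other genes of the span that were changed in a comparison, up to 4 genes of each list, and for each member the genes most alike over 7 groups. The contrast of 96 h with 24 h, the voom fit on recovered reads and the covered bases were chosen after values had been seen. So were the H3K9me3 domains and the MED23 elements and peaks defined from the DMSO libraries. The ratios of members within a library were not among the comparisons planned beforehand. Alternatives were the pseudocount, the filter, centring on the median, the replicate block, only the groups compared, peak thresholds and window size, and leaving out each replicate.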

Additional observations from a re-analysis of the deposited data

Results flagged for a closer look

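The effect of 24 h of dTAG-13 on 2 members differed between the shERV line and the tagged line in a direct test, the interaction term of a limma fit with Benjamini-Hochberg adjustment. For Begain, the effect in the shERV line minus that in the tagged line was -1.90 on the log2(TPM + 0.5) scale (adjusted p = 5.52e-06), from -0.08 in the shERV line and 1.83 in the tagged line. For Rian it was 0.40 (adjusted p = 0.0134), from -0.00 and -0.40. The lines were also prepared with different library kits, total RNA for the shERV line and mRNA capture for the tagged line, so line and kit cannot be told apart. No group had 4 or more libraries, so single libraries were not tested for standing apart.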

How the results depend on the processing

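With libraries centred on the median, 7 differences that were not called turned: Rian at 6 h to -0.048, Meg3 at 24 h to -0.193, Meg3 in the shERV line to -0.133, Begain and Rian with Dox against DMSO to -0.066 and -0.015, Dlk1 in NPCs to -0.202, and Meg3 in the comparison of lines to 0.055. Centring also gave 4 changed members at 96 h, 1 in the shERV line after dTAG-13 and 5 in NPCs, and a pseudocount of 0.1 gave 1 in the shERV line after dTAG-13. In nascent RNA at 6 h, 0 members were changed with a pseudocount of 1 or only the 2 groups fitted, and 0 to 1 without any 1 library. A filter of a mean of at least 5 FPKM left 0 members to test. At 24 h, voom on recovered reads gave 1 changed member in nascent RNA, and a pseudocount of 1 gave 1 in RNA, as did a mean of at least 5 TPM, a filter that removed Dio3 and left 5 members to test. For H3K9me3 between Dlk1 and Meg3, the difference was 0 among the top 10000 peaks or at a −log10 q of at least 5, and -6990 in covered bases. Start windows lower in every dTAG-13 library numbered 0 for H3K9me3 and 1 for MED23 among the top 10000 peaks, and 1 for H3K27Ac in 2-kb windows.

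Leaving out 1 library turned some differences that were not called. Their ranges were -0.094 to 0.016 for Rian at 2 h, -0.117 to 0.091 for Dlk1, -0.056 to 0.301 for Mirg and -0.005 to 0.104 for Rian at 6 h, and -0.003 to 0.251 for Meg3 at 24 h. Those for dTAG-13 against DMSO in the shERV line were -0.018 to 0.032 for Rian, -0.044 to 0.074 for Meg3, -0.359 to 0.707 for Rtl1 and -0.128 to 0.059 for Begain. Those for dTAG-13 with Dox against DMSO were -0.061 to 0.028 for Dlk1, -0.802 to 0.548 for Rtl1 and -0.018 to 0.092 for Begain. Those for Dox against dTAG-13 alone were -0.032 to 0.168 for Begain and -0.781 to 0.207 for Rtl1. Those for parental against tagged ESCs were -0.071 to 0.114 for Begain. Those for the difference between lines were -0.220 to 0.035 for Meg3, -0.122 to 0.234 for Mirg and -0.189 to 0.877 for Rtl1. The cause of these moves was not tested. Among other values for single genes, 456 kept their direction and side of the threshold, as did 424 without 1 library, while 6 and 15 lost a call and 10 and 5 gained one.

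Replicate numbers did not pair the libraries, since the correlations of same-numbered deviations ran from -0.205 to 0.177. With a replicate block the number of changed members at 24 h stayed at 2, and Meg3 at 6 h (0.33, adjusted p = 0.0494) and Mirg at 24 h (-0.39, adjusted p = 0.0337) became called. Members below the filter in nascent RNA rested on at most 204 reads in a group, which limits what can be seen.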
